A study of Mus musculus with 10 samples.

Results

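The genes described here are 8 genes best known from the lining of the airways and the lung, measured in mouse hearts and heart muscle cells: the secretoglobin genes Scgb1a1 and Scgb3a2, the BPI-fold genes Bpifb1 and Bpifa1, and the surfactant protein genes Sftpa1, Sftpb, Sftpc and Sftpd. They were chosen by their names with earlier results from these arrays known, including their levels on the heart arrays, so those levels are given as a description with no test. Each gene had 1 probe set listed with its symbol alone, 8 of 8 genes were measured, and they are 8 of the 19938 genes on the array that could be named in this way. Had a gene had several probe sets, the one with the highest mean over all 10 arrays would have been kept.

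The study compared mice with a knockdown (KD) of VAChT, the vesicular acetylcholine transporter that loads acetylcholine into secretory vesicles, with wild-type (WT) mice. Whole hearts gave 2 KD and 2 WT arrays, and ventricular cardiomyocytes, the contracting muscle cells of the ventricles, gave 3 KD and 3 WT arrays. The labels describe all mice as untreated C57BL/6 males, 3 months old, and each array held RNA of 2 samples pooled together. The series title writes the genotype of the hearts as VAChT KDHOM. The sources used here do not say which part of the gene was altered or in which cells it was lowered. They also do not say whether arrays of a group came from separate animals, so p-values measure no more than the differences among arrays of a group, part of which may be technical, and the small number of arrays limits their precision.

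Secretoglobins are small secreted proteins. Those of Scgb1a1 and Scgb3a2 are made by the club cells of the airways, and Scgb1a1 is the classical club cell gene. The BPI-fold genes Bpifa1 and Bpifb1 encode secreted proteins of the nose, trachea and large airways that take part in defence against microbes. Surfactant proteins are made mainly by alveolar type II cells, which coat the air sacs with surfactant: Sftpb and Sftpc encode the hydrophobic proteins that spread the lipid film, and Sftpa1 and Sftpd encode collectins, lectins that bind microbes. Working heart muscle is not known as a source of any of these secretions, while Sftpb is also known from the club cells of the airways.

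In the RefSeq gene table (GRCm38.p6), Bpifa1 and Bpifb1 lie close together on chromosome 2 with 1 other protein-coding gene, Bpifa5, between their starts, and Sftpa1 and Sftpd on chromosome 14 with 1 other protein-coding gene, Mbl1, between theirs. Promoters of 4 of the genes were present in the RefSeq promoter table and are shown to set those of Bpifb1 and Bpifa1, in which WT heart replicate 2 lay 1.20 and 0.50 above the next heart array, beside those of Sftpb and Sftpa1, in which the highest array lay 0.016 and 0.11 above the next. Each is the 250 bases before the gene's start on the plus strand of GRCm38.p6, at chr2:154190568-154190817 for Bpifb1, chr2:154142630-154142879 for Bpifa1, chr6:72304360-72304609 for Sftpb and chr14:41131538-41131787 for Sftpa1. Capitals mark matches, on either strand, to CTCAAG or CAAGTG, letters bound by NK2 homeodomain factors, or to TGTTTGC, letters bound by FOXA factors.
Bpifb1: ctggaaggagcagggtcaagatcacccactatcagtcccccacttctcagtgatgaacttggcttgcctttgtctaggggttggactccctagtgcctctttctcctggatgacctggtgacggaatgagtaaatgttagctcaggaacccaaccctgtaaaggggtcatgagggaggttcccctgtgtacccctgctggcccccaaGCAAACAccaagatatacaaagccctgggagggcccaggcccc
Bpifa1: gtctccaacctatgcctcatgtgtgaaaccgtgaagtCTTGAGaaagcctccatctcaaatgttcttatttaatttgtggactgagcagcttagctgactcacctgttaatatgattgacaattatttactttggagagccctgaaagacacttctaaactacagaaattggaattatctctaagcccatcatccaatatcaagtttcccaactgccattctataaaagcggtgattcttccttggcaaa
Sftpb: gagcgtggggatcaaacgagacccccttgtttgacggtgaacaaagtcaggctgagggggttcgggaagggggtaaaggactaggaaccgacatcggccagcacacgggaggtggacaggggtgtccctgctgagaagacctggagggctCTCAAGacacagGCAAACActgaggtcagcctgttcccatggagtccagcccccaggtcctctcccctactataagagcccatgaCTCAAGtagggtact
Sftpa1: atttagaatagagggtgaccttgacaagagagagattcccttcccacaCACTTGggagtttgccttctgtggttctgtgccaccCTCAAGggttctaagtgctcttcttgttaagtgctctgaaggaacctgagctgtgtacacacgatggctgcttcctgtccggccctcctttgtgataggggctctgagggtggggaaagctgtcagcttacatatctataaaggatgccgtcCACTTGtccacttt

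NK2 factors include NKX2-1 of lung epithelium and NKX2-5 of heart muscle, and FOXA factors act with NKX2-1 in the lung. CTCAAG matched 2 times in the Sftpb window, 1 time in that of Bpifa1 and 1 time in that of Sftpa1, and 13.3% of all 32851 promoter windows of this length held it. CAAGTG matched 2 times in the Sftpa1 window, against 11.6% of all windows. TGTTTGC matched 1 time in the windows of Bpifb1 and Sftpb, against 4.3% of all windows; in Sftpb it begins 88 bases before the start, close to a CTCAAG that begins 100 bases before it. TGTTTAC, another form bound by FOXA factors (3.17% of all windows), and TTGCNNAA, letters bound by C/EBP factors (9.56%), matched in none of these windows. No match overlapped another, and a second Bpifb1 start in the table had no match to any of the 5 motifs. These matches are a description of the letters and not sites of binding.

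Slc18a3, the gene of VAChT, was not lower on the arrays labelled KD: it was 7.31 and 7.84 in KD hearts, against 7.34 and 7.72 in WT hearts, and 6.22, 6.52 and 6.21 in KD cardiomyocytes, against 6.06, 6.37 and 6.04 in WT cardiomyocytes. Where its probe set lies relative to the altered part of the gene is not known here, so these values do not check the labels, and the groups are called as labelled. One heart array departed from the others over many genes: 149 of the 154 genes (0.772%) in which 1 heart array lay at least 1 above the next on the log2 scale, here called standing apart, did so in KD heart replicate 1 (0.747% of all genes). Of 12 measured thymocyte genes 11 stood apart there, among them Rag1, which cuts the antigen receptor genes, at 11.68 and 6.73 in KD hearts against 6.51 and 6.60 in WT hearts. All 12 cardiac muscle markers, from Nkx2-5 to Actc1, lay above the array median on every array of both kinds, with values from 9.52 to 14.59. The medians of the named genes were 7.54 to 7.59 on the heart arrays and 6.19 to 6.27 on the cardiomyocyte arrays, so the 2 kinds of array were apparently normalized apart and their log2 values are not set against each other. No detection calls were used here, so it is not known which of the 8 genes were above background.

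Scgb1a1 (probe set 10465840, chromosome 19), the club cell secretoglobin, was high on a single heart array. Its log2 intensity was 5.46 and 5.26 in KD heart replicates 1 and 2, against 5.51 and 7.34 in WT heart replicates 1 and 2. WT heart replicate 2 lay 1.83 above the next heart array, a 3.57-fold gap in intensity, while the other 3 hearts spanned 0.25. The 2 WT hearts thus differed by more from each other than any KD heart did from WT replicate 1. Ranked among all genes of an array, a scale that depends on how bright each probe set is and is not an abundance, Scgb1a1 lay at percentile 9.9 and 7.22 on the KD hearts, against 10.3 and 44.7 on the WT hearts. In RNA of whole tissue, more cells of a type and more RNA per cell cannot be told apart.

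Bpifb1 (probe set 10477495, chromosome 2), a secreted BPI-fold protein of the airway, had the same array highest. Its values were 5.91 and 6.19 in KD hearts, against 6.38 and 7.58 in WT hearts. WT heart replicate 2 lay 1.20 above WT heart replicate 1, a 2.30-fold gap, and the other 3 hearts spanned 0.48. Its percentile was 15.2 and 17.5 on the KD hearts, against 22.8 and 51.2 on the WT hearts.

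Bpifa1 (probe set 10477475, chromosome 2), another secreted airway protein, was 6.38 and 6.06 in KD hearts, against 6.39 and 6.89 in WT hearts. WT heart replicate 2 was again highest, by 0.50, a 1.41-fold gap, just under the lower gap of 0.5 used as an alternative. The 3 other hearts spanned 0.33, so this gap was larger than their span but smaller than those of Scgb1a1 and Bpifb1.

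Scgb3a2 (probe set 10455389, chromosome 18), another secretoglobin of the airways, did not show this pattern. It was 5.73 and 6.07 in KD hearts, against 5.78 and 6.08 in WT hearts, so that replicate 2 of either genotype lay above both replicates numbered 1. Its 4 heart values spanned 0.34, and the highest lay 0.0078 above the next.

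**Figure D1:**
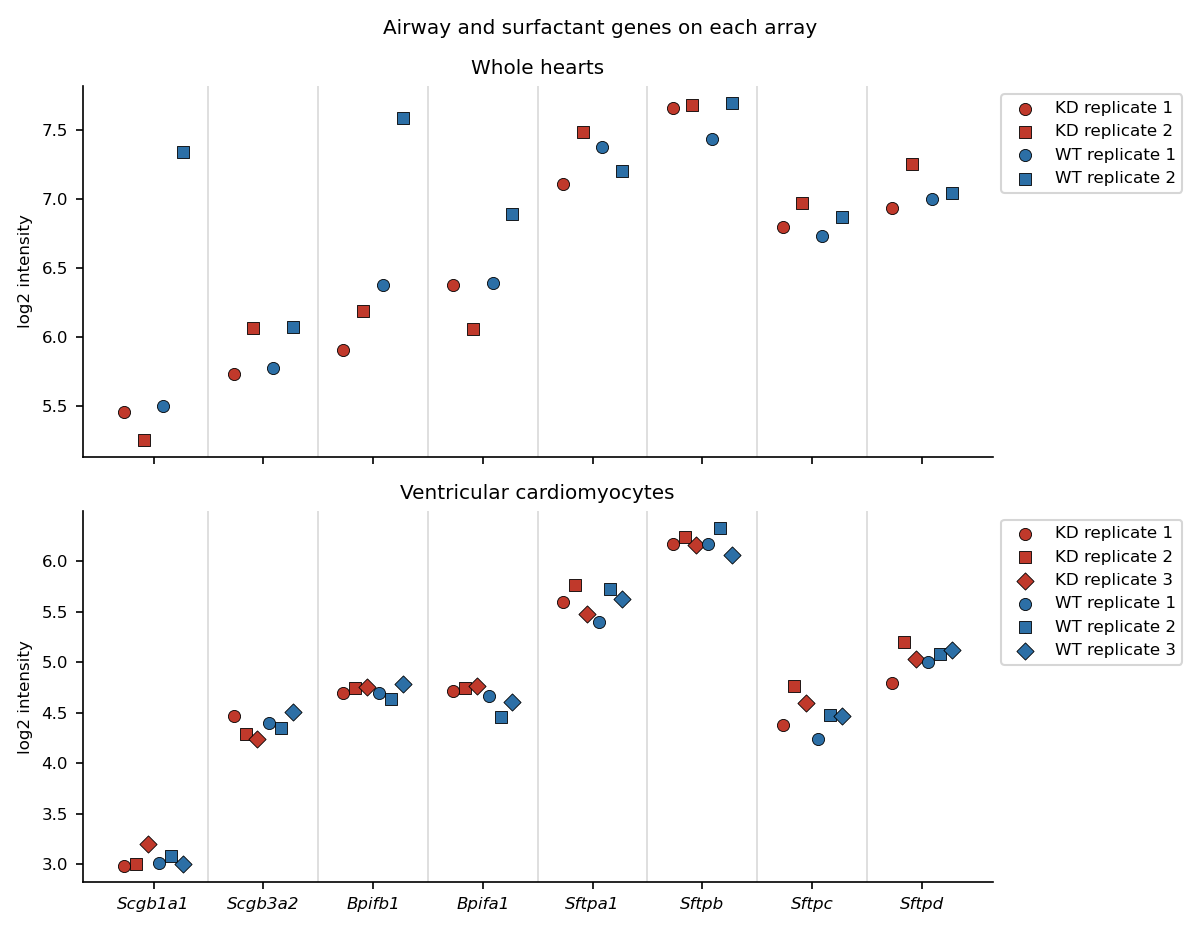
Log2 intensity (y axis) of each gene (x axis) on every array, with whole hearts above and ventricular cardiomyocytes below; each point is 1 array, red for KD and blue for WT, with the shape giving the replicate. WT heart replicate 2 lies at 7.34 for Scgb1a1 and 7.58 for Bpifb1, above the other 3 hearts, while the cardiomyocyte arrays lie within 0.53 of each other for every gene.

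The surfactant genes had no such array. Sftpc (probe set 10421387, chromosome 14), whose product is made by alveolar type II cells and is among their most specific markers, was 6.79 and 6.97 in KD hearts, against 6.73 and 6.87 in WT hearts. Sftpb (probe set 10539091, chromosome 6), the other hydrophobic surfactant protein gene, was 7.65 and 7.68 in KD hearts, against 7.44 and 7.69 in WT hearts. In both genes the KD and WT hearts overlapped, and all 4 arrays lay within 0.26.

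Of the collectins, Sftpa1 (probe set 10414202, chromosome 14) was 7.10 and 7.48 in KD hearts, against 7.37 and 7.20 in WT hearts. Sftpd (probe set 10419096, chromosome 14) was 6.93 and 7.25 in KD hearts, against 7.0 and 7.04 in WT hearts. KD heart replicate 2 was the highest array for Sftpa1, Sftpc and Sftpd, by 0.11, 0.10 and 0.21. Among the marker lists below, that array was highest in 4 of 12 alveolar type II genes and 6 of 10 alveolar type I genes. It was also highest in 9 of 15 club and airway secretory genes, 11 of 14 ciliated cell genes and 0 of 7 fat genes. The share of that array over all genes was not counted, so nothing is read from these counts or from the 3 surfactant genes. Relative to the median of the other 3 hearts, WT heart replicate 2 lay between -0.17 and 0.07 in the 4 surfactant genes, and between 0.30 and 1.88 in the 4 secretoglobin and BPI-fold genes. The median of that deviation was 0.04 in the surfactant genes, 0.95 in the secretoglobin and BPI-fold genes and 0.0096 over all genes.

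Over the whole array, 3 of 19938 genes (0.015%) stood apart in WT heart replicate 2, and Scgb1a1 and Bpifb1 were 2 of them, with Scgb1a1 at the widest gap of all. The third was Glycam1, a mucin-like protein of lymph node vessels and of the mammary gland, at 8.74 and 7.05 in KD hearts against 7.10 and 9.99 in WT hearts; it was thus also raised on KD heart replicate 1, where Scgb1a1 and Bpifb1 were not. At a gap of 0.5 there were 21 such genes (0.105%), with the same 2 among them. WT heart replicate 2 was simply the highest heart array, by any gap, in 5 of the 8 genes, against 19.2% of all genes, and these shares are given as a description since heart levels had a part in the choice of the genes. On the cardiomyocyte arrays 0 of the 8 genes had 1 array standing apart, against 0.12% of all genes.

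**Figure D2:**
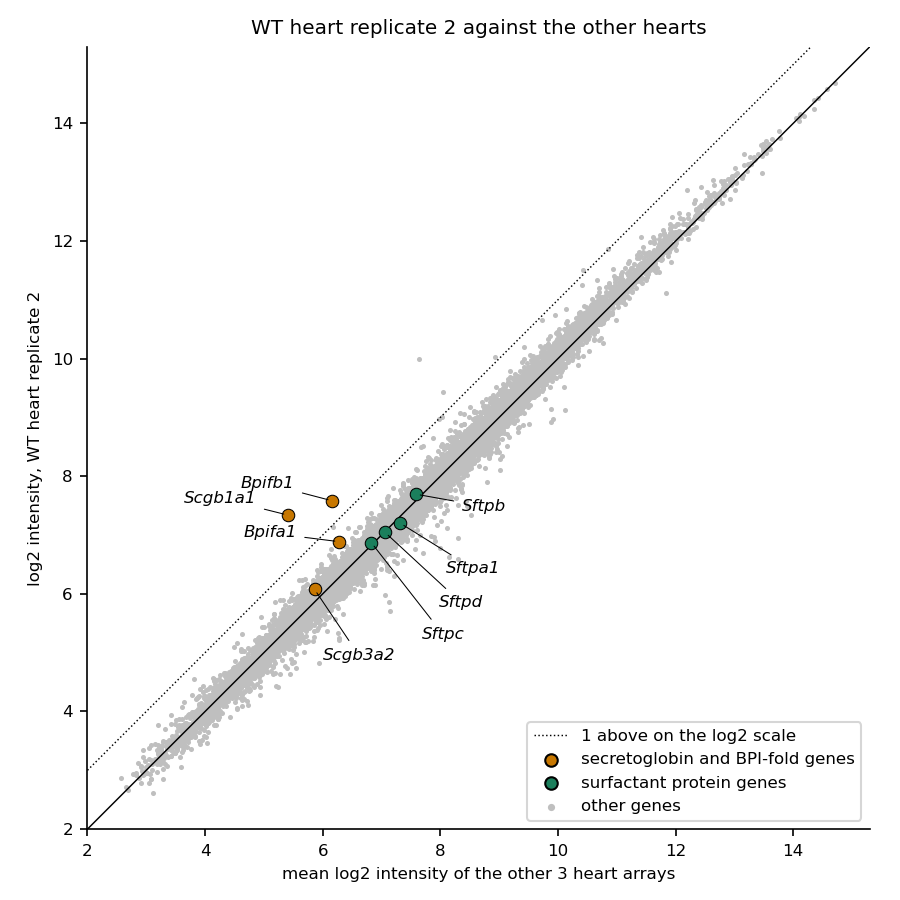
Log2 intensity on WT heart replicate 2 (y axis) against the mean log2 intensity of the other 3 heart arrays (x axis) for all 19938 genes, each gene 1 point; the solid line marks equal values and the dotted line values 1 higher. Scgb1a1 and Bpifb1 lie above the dotted line, Bpifa1 lies between the lines, and Scgb3a2 and the 4 surfactant genes lie within the band of other genes.

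Among other genes of the lung none was raised on WT heart replicate 2 as far as Scgb1a1 and Bpifb1. Marker lists of alveolar type II, alveolar type I, club and airway secretory, and ciliated cells held 50 measured genes beside the 8. In 0 of them did any heart array stand apart, against 0.772% of all genes. A count of 0 is near that share, so nothing is read from it, here or in the lists below. Basal airway genes, which are shared with squamous and thymic epithelium, are counted apart from these lung lists and given with the keratins. WT heart replicate 2 was the highest heart array in 9 of the 50 (18% against 19.2% of all genes), with a widest gap of 0.13, in Pdpn, a surface glycoprotein of alveolar type I cells and of other cells.

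Among the club and airway secretory genes, Cyp2f2, a cytochrome P450 of club cells, was 7.01 and 7.30 in KD hearts, against 7.19 and 7.29 in WT hearts. Scgb3a1, a secretoglobin of the larger airways, was 7.10 and 7.32 in KD hearts, against 7.09 and 7.28 in WT hearts. In both genes the groups overlapped and KD heart replicate 2 was highest. Reg3g, a secreted antimicrobial lectin, was 7.02 and 6.08 in KD hearts, against 6.50 and 6.74 in WT hearts, highest on KD replicate 1. The most raised gene of these lists on WT heart replicate 2 was Chad, a matrix protein gene, 0.57 above the median of the other 3 but 0.11 above the next, at 7.42 and 8.15 in KD hearts and 7.69 and 8.26 in WT hearts. Cbr2, a carbonyl reductase of club cells, and Gsta3, a glutathione transferase, had the highest means of the list over the 4 heart arrays, and KD heart replicate 2 was highest in both, by 0.10 and 0.27. The summed intensity of the 15 measured genes of this list, on the log2 scale, was 11.63 and 11.82 in KD hearts and 11.48 and 11.73 in WT hearts. Cyp2f2, Scgb3a1, Reg3g and Chad, and Nkx2-1, Car4, Cd68 and Marco below, were picked after their values were seen.

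Among alveolar markers too, no heart array stood apart. Ctsh, a protease that processes surfactant protein, was 8.74 and 8.68 in KD hearts, against 8.92 and 9.02 in WT hearts. Lpcat1, an enzyme of surfactant lipid synthesis, was 8.16 and 8.08 in KD hearts, against 8.13 and 8.01 in WT hearts. The summed log2 intensity of the 12 measured type II genes was 10.92 in each of the KD hearts, and 10.97 and 10.96 in WT hearts. Nkx2-1, the lung transcription factor in that list, was 7.25 and 7.50 in KD hearts, against 7.37 and 7.42 in WT hearts. Of the type I genes, Hopx, which heart muscle also makes, was 8.92 and 8.89 in KD hearts, against 9.46 and 9.16 in WT hearts.

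In the ciliated cell list, Tppp3, a tubulin-binding protein gene, was 9.13 and 8.99 in KD hearts, against 9.33 and 9.17 in WT hearts, and 0 of its 14 genes stood apart. Some genes of other epithelial lists stood apart, on KD heart replicate 1, the array with the thymocyte signal. Krt5, a keratin of basal airway cells, squamous epithelia and thymic epithelium, was the 1 of 8 genes of the basal airway and squamous keratin list to do so. It was 8.63 and 7.12 in KD hearts, against 6.98 and 6.77 in WT hearts. Krt18, a keratin of simple epithelia, was 8.90 and 7.87 in KD hearts, against 7.75 and 7.63 in WT hearts. It was the 1 of 13 genes of the general epithelium list to stand apart. The median deviation of that list on KD heart replicate 1 was 0.07. Of 8 thymic epithelial genes 4 stood apart on KD heart replicate 1, among them the chemokine gene Ccl25, at 10.72 and 7.11 in KD hearts against 7.07 and 6.96 in WT hearts. On that array all 8 airway and surfactant genes lay below the median of the other 3 hearts, by values between -0.48 and -0.01.

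**Figure D3:**
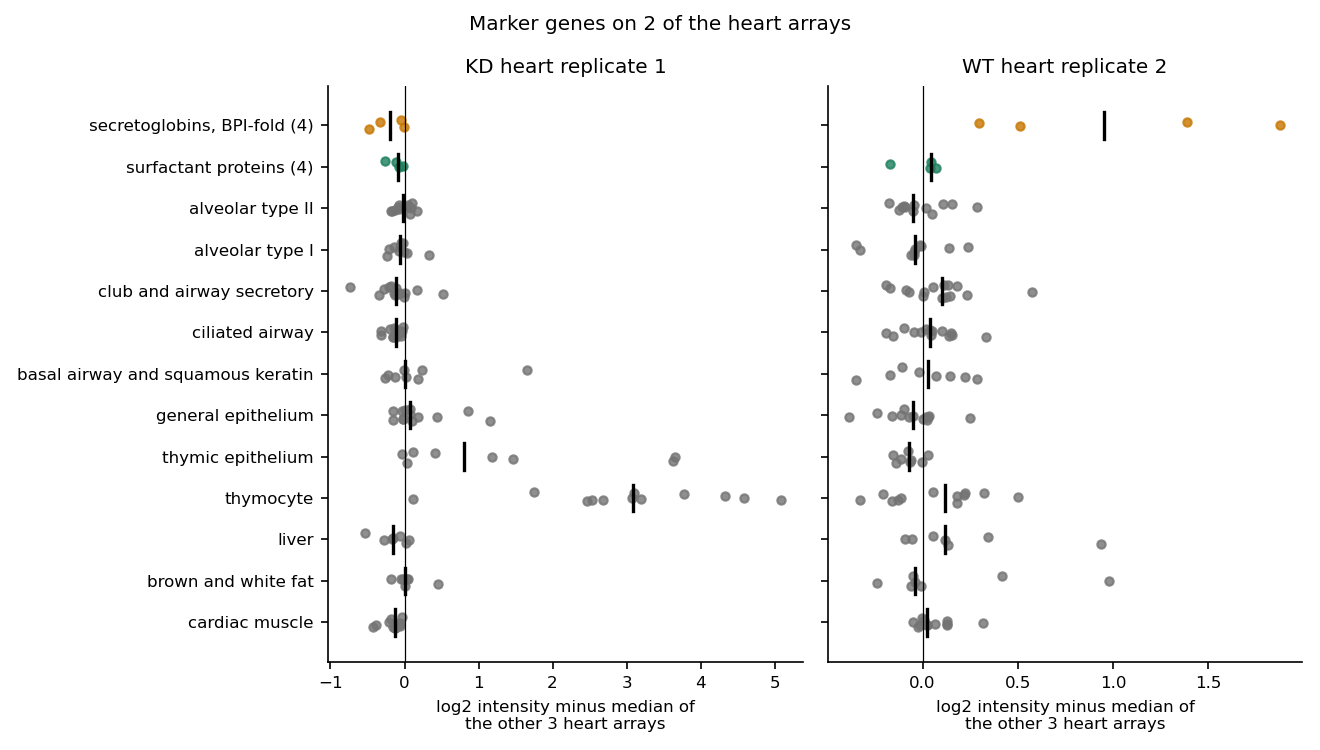
Log2 intensity of each marker gene on KD heart replicate 1 (left) and WT heart replicate 2 (right), minus its median on the other 3 heart arrays (x axes, which differ in scale), by marker list (rows); each point is 1 gene and the black bar is the median of the list. On WT heart replicate 2 the secretoglobin and BPI-fold genes reach 1.88 while the 50 genes of the 4 lung lists stay at or below 0.57. On KD heart replicate 1, 11 of 12 thymocyte genes and 4 of 8 thymic epithelial genes stand apart, as do Krt5 and Krt18.

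Relatives of the genes by name, a set drawn up after the values were seen, did not share the pattern either. Of 11 other Bpif genes and 9 other Scgb genes, 0 had a heart array standing apart, against 0.772% of all genes, and nothing is read from that count. Bpifa5, which starts between Bpifa1 and Bpifb1, was 6.80 and 7.19 in KD hearts, against 6.86 and 6.83 in WT hearts. The deviation of WT heart replicate 2 from the median of the other 3 hearts was at most 0.22 in the other Bpif genes and 0.53 in the other Scgb genes. Of the nearby tissues given a list, thyroid and parathyroid (5 measured genes), mesothelium (7), skeletal muscle (10) and fat (7) also had 0 genes standing apart. In the fat list WT heart replicate 2 was highest in 2 of the 7 genes, against 19.2% of all genes, and WT heart replicate 1 in 5. The median deviation of the list on WT heart replicate 2 was -0.04. The 2 genes were Ucp1, by 0.52, and Cidea, a lipid droplet protein gene of brown fat. Cidea was 8.79 and 8.97 in KD hearts, against 8.95 and 9.37 in WT hearts. Plin1, a lipid droplet protein gene of all fat, was 8.37 and 8.26 in KD hearts, against 8.51 and 8.36 in WT hearts. In the liver list, Alb, the serum albumin gene, was 6.09 and 6.26 in KD hearts, against 6.19 and 7.13 in WT hearts, the fifth widest gap of WT heart replicate 2. Cyp2e1, a cytochrome P450 of liver and fat, was also highest there, at 8.95 and 9.39 in KD hearts against 9.49 and 9.73 in WT hearts. Apoa2, an apolipoprotein gene, was lowest there, at 7.57 and 7.55 in KD hearts against 7.58 and 7.48 in WT hearts. Of 11 macrophage genes 0 stood apart, and WT heart replicate 2 was highest in 2, against 19.2% of all genes. C1qc, a complement chain, was 9.96 and 10.14 in KD hearts, against 9.90 and 10.19 in WT hearts. Car4, a carbonic anhydrase that capillary cells also make, was 8.92 and 9.59 in KD hearts, against 9.04 and 9.79 in WT hearts, 0.75 above the median of the other 3 on WT heart replicate 2. Cd68, a lysosomal protein gene, was 9.09 and 9.74 in KD hearts, against 8.53 and 9.34 in WT hearts, and Marco, a receptor of alveolar macrophages, was 7.22 and 7.32 in KD hearts, against 7.13 and 7.11 in WT hearts. KD heart replicate 2 was highest in 5 of the 11 macrophage genes, against 8 of 10 skeletal muscle genes and 0 of 7 fat genes. Its share over all genes was not counted, and nothing is read from these counts. The heart arrays also differed in atrial muscle genes: all 6 were lower in both KD hearts than in both WT hearts, against 15.4% of all genes. KD heart replicate 2 was lowest, at a median of -1.28 from the other 3. That order of KD and WT hearts was not particular to atrial genes. It held in 7 of 9 endothelium and fibroblast genes and in 6 of 12 cardiac muscle genes, and the opposite order in 0 of either list. Myl4, which encodes the atrial form of a myosin light chain, was 11.22 and 10.18 in KD hearts, against 11.45 and 11.40 in WT hearts. The part of other tissues in the Scgb1a1 and Bpifb1 values was not tested.

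The genes with the pattern most like each of the 8 were taken by Pearson correlation over the 10 arrays, with the mean of its tissue subtracted from each value. The pool was the 353 genes whose heart arrays spanned at least 1, leaving out gene models and olfactory genes. For Scgb1a1 these were Bpifb1 (0.95), Alb (0.94), Glycam1 (0.84), Ucp1, the uncoupling protein of brown fat (0.83), and Gemin7, a factor of small nuclear RNA assembly (0.79). Bpifa1 correlated with Scgb1a1 at 0.86, but its heart range of 0.83 kept it out of the pool. Of the 5 genes listed, only Glycam1 would have passed the span without WT heart replicate 2, so the list rests on that array. All 5 were lower without WT heart replicate 2: the correlation with Bpifb1 was 0.04, with Gemin7 0.05, with Alb 0.15, with Glycam1 0.27 and with Ucp1 0.57. Ucp1 was 8.48 and 7.56 in KD hearts, against 8.03 and 9.0 in WT hearts, and Gemin7 was 7.96 and 8.11 against 7.86 and 8.97.

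The surfactant genes had other neighbours. The surfactant genes themselves were outside the pool, with heart ranges of 0.24 to 0.38. Within the pool, Inmt, a methyltransferase known from the lung, was closest to Sftpa1 (0.71), Sftpc (0.61) and Sftpd (0.73). It was 8.49 and 9.50 in KD hearts against 9.17 and 8.92 in WT hearts. Outside the pool, Sftpc correlated with Sftpd at 0.66, and Sftpa1 with Sftpc and Sftpd at 0.54 and 0.60. Sftpb correlated with Sftpa1, Sftpc and Sftpd at 0.10, 0.37 and 0.24. Sftpb was closest to Alas2, the haem synthesis enzyme of red cells (0.80), which was 12.24 and 12.51 in KD hearts, against 11.26 and 11.97 in WT hearts. Scgb3a2 was closest to Cited2, a transcriptional regulator (0.87), at 10.13 and 11.02 in KD hearts against 10.08 and 11.25 in WT hearts. Without WT heart replicate 2 these values were 0.71, 0.62 and 0.73 for Inmt, 0.85 for Alas2 and 0.84 for Cited2. Inmt was highest on KD heart replicate 2 and Alas2 lowest on WT heart replicate 1. Leaving out WT heart replicate 2 could therefore change their values little, and correlations without another heart array were not computed. The 10 points share 2 tissues and a common normalization within each, so these correlations are descriptions of the arrays.

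KD hearts were then set against WT hearts, the study's comparison in the whole organ. In Scgb1a1, Bpifb1 and Bpifa1 each KD heart had a lower value than each WT heart, 3 of 8 genes against 15.4% of all genes, and the opposite held in 0 of 8, against 14.2%; nothing is read from these counts, since heart levels had a part in choosing the genes. Scgb1a1 averaged 5.36 ± 0.15 in KD hearts and 6.42 ± 1.30 in WT hearts (SD, n = 2 each), a difference of -1.06. That difference was -0.15 without WT heart replicate 2 and -1.98 without WT heart replicate 1. Bpifb1 averaged 6.05 ± 0.20 in KD hearts and 6.98 ± 0.85 in WT hearts (SD, n = 2 each), a difference of -0.93, which was -0.33 without WT heart replicate 2 and -1.53 without WT heart replicate 1. In both genes the WT mean was set by 1 array, and the WT standard deviation was close to the difference itself.

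Bpifa1 averaged 6.22 ± 0.22 in KD hearts and 6.64 ± 0.35 in WT hearts (SD, n = 2 each), a difference of -0.42, and of -0.17 without WT heart replicate 2. The differences of Scgb3a2, Sftpa1, Sftpb, Sftpc and Sftpd lay between -0.03 and 0.10, and each took both signs as single arrays were left out. The median difference was -0.68 in the secretoglobin and BPI-fold genes, 0.08 in the surfactant genes and 0.0076 over all genes. Over all 19938 genes limma called 0 (0%) between KD and WT hearts at an adjusted p under 0.05, with 982 at an unadjusted p under 0.05. Without WT heart replicate 1, when WT heart replicate 2 alone stood for the WT hearts and was assumed to vary like the other groups, limma called 2 genes, Scgb1a1 and Bpifb1, which is no test of genes chosen on these levels. Without KD heart replicate 1 it called 1 gene, and without KD heart replicate 2 it called 303.

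In ventricular cardiomyocytes, whose levels were not used to choose the genes, limma called 0 of the 8 between KD and WT, against 0% of all genes. At an unadjusted p under 0.05 there were 419 of 19938 genes and 0 of the 8. Scgb1a1 was 2.99, 3.00 and 3.20 in KD cells, against 3.02, 3.08 and 3.00 in WT cells. Its groups overlapped, and the difference was 0.03 (SE 0.31, 95% confidence interval -0.64 to 0.70). The interval is wide because the fit takes 1 spread from all 10 arrays, WT heart replicate 2 included; fitted on cardiomyocyte arrays alone it ran from -0.16 to 0.22.

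Bpifb1 was 4.69, 4.75 and 4.75 in KD cells, against 4.70, 4.64 and 4.78 in WT cells, a difference of 0.03 (SE 0.22). Its groups overlapped, and fitted on cardiomyocyte arrays alone the interval ran from -0.17 to 0.23. Bpifa1 was 4.72, 4.74 and 4.76 in KD cells, against 4.67, 4.46 and 4.61 in WT cells. Of the 8 genes only this 1 had every KD value over every WT value, against 2.99% of all genes, and 0 of 8 had the opposite order, against 3.21%. Its difference of 0.16 (SE 0.13, interval -0.12 to 0.44) did not pass, at a limma adjusted p of 1.

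Scgb3a2 was 4.47, 4.29 and 4.25 in KD cells, against 4.40, 4.34 and 4.51 in WT cells, a difference of -0.08 (interval -0.34 to 0.17). Sftpc was 4.38, 4.77 and 4.59 in KD cells, against 4.24, 4.48 and 4.47 in WT cells, and its difference of 0.18 (SE 0.12, interval -0.07 to 0.44) was the largest of the 8. Both genes had overlapping groups. The differences of Sftpa1, Sftpb and Sftpd were 0.03, 0.0024 and -0.06, with intervals from -0.25 to 0.30, from -0.23 to 0.23 and from -0.32 to 0.20. The 6 cardiomyocyte arrays spanned 0.15 to 0.30 in the secretoglobin and BPI-fold genes and 0.26 to 0.53 in the surfactant genes. Scgb1a1, which spanned 2.08 over the hearts, the widest of the 8, spanned 0.21 here.

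**Figure D4:**
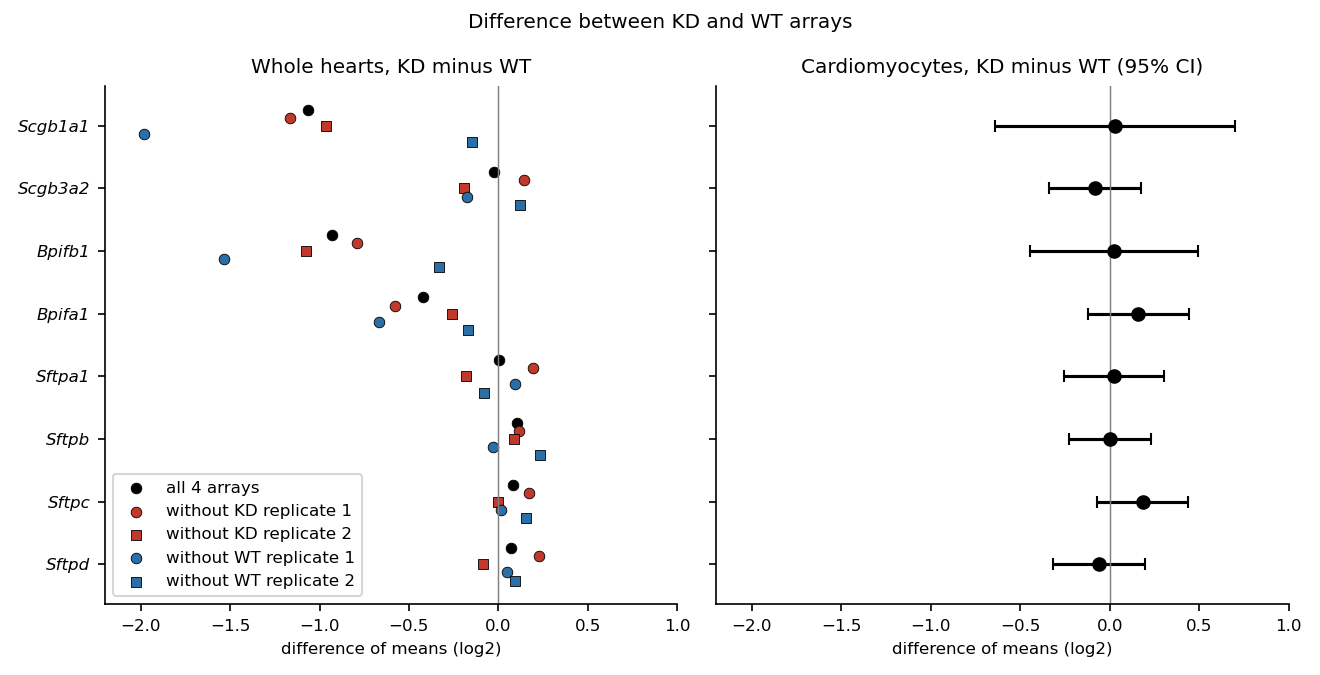
Difference between the means of KD and WT arrays (x axes, log2) for each gene (rows), in whole hearts on the left and in cardiomyocytes on the right; left, black points use all 4 arrays and the coloured points leave out 1 array each, and right, points are limma estimates with 95% confidence intervals. The heart differences of Scgb1a1 and Bpifb1 move to -0.15 and -0.33 without WT replicate 2, and every cardiomyocyte interval holds 0.

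Rank within an array was also compared across the 2 kinds of sample, with no test, since they were apparently normalized apart. Scgb1a1 lay at percentiles 0.99 to 2.09 on the cardiomyocyte arrays and Bpifb1 at 18.8 to 22.1. Bpifb1 thus ranked on KD hearts and on WT heart replicate 1 near where it ranked in isolated muscle cells, and WT heart replicate 2 was far above. Scgb1a1 did not: at 9.9 and 7.22 on KD hearts and 10.3 on WT heart replicate 1, it ranked above its cardiomyocyte percentiles on every heart. Sftpb lay at percentiles 47.3 to 54.1 on the hearts and 47.0 to 51.9 on the cardiomyocyte arrays, while Sftpc lay at 30.1 to 33.0 on the hearts and 13.9 to 20.8 on the cardiomyocyte arrays.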

How the data were processed

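RNA of whole hearts and ventricular cardiomyocytes was hybridised to Affymetrix arrays. The table the authors deposited gives log2 intensity for 35556 probe sets. RMA and Partek are named per the submitters' processing notes, with versions and build not stated in the sources used here. Per the labels, target labelling followed different manuals for the 2 kinds of sample. Genes were named from the platform annotation: 21789 probe sets had 1 symbol, 1621 several (not used) and 12146 had no entry there, which left 19938 genes. The table had 0 columns of no sample.

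All 10 arrays were fitted with 4 group means in limma 3.58.1 under R 4.3.3 (intensity trend; 6 residual and 6.81 prior degrees of freedom), two-sided, and p-values were adjusted over all genes by Benjamini and Hochberg's method, with a threshold of 0.05. Exact permutation of 3 arrays against 3 cannot go below a p of 0.1. In 5 simulated runs with 200 genes changed 2-fold among 19938, 93.4% were recovered in cardiomyocytes and 86% in hearts. A mean of 9.6 and 7.8 unchanged genes were called per run. The simulated noise was independent between arrays, with no array departing over many genes as KD heart replicate 1 did. The 86% therefore does not measure recovery in the real hearts. Genes, marker lists and tests were chosen with earlier results of these data known. Named genes were all 8, the 5 closest by correlation to each (a subset is printed), and in each list those standing apart (at most 5) or otherwise the 2 of highest mean over the hearts; gene models and olfactory genes were not named. The lists of atrial muscle, endothelium and fibroblasts, and blood (1 gene) had 0 genes with 1 array standing apart upward. Alternatives were other normalizations, a filter on dim genes, probe set means, single-tissue fits, no trend, a replicate block, an adjusted p of 0.1 and leaving out each array.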

Additional observations from a re-analysis of the deposited data

Results flagged for a closer look

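Bpifa1 lay in opposite directions in the 2 kinds of sample: each KD heart was below each WT heart, with a difference of -0.42, and each KD cardiomyocyte array was above each WT one, with a difference of 0.16. The heart order was close, at 6.377 in KD heart replicate 1 against 6.390 in WT heart replicate 1. The cardiomyocyte interval, -0.12 to 0.44, held 0. The difference between these effects was not tested for Bpifa1, since heart levels had a part in its choice. Over all 19938 genes limma called 0 for that difference, with 696 at an unadjusted p under 0.05. The heart difference of Bpifa1 was -0.17 without WT heart replicate 2.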

How the results depend on the processing

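No gene was called between KD and WT cardiomyocytes under any alternative run. Between KD and WT hearts, the fit with a replicate block called 1 gene, Clec1b. Same-numbered arrays' deviations from their group means correlated at 0.15, 0.13 and -0.05 in cardiomyocytes and 0.23 in hearts. With 2 heart arrays a group the heart value only changes sign if the numbers are swapped, so it cannot settle whether they are pairs. The numbers were not taken as pairs. In hearts, leaving out 1 array gave 0 to 303 calls, 303 without KD heart replicate 2, when KD replicate 1 with its thymocyte genes stood alone. The difference between the tissues' KD effects had 0 to 237 calls with 1 array left out, 237 without KD heart replicate 2 and 2 without WT heart replicate 1. Scgb1a1 and Bpifb1 stood apart in WT heart replicate 2 under each normalization run, and the count of the 8 genes was 0 to 2 with 1 heart array left out. It was 0 with the filter on dim genes, since Sftpb was the only 1 of the 8 it kept; signal over background is not known and limits every value given. Over the other marker lists 17 genes stood apart, and 0 to 17 with 1 heart array left out. In cardiomyocytes 94 values of the 8 genes kept their direction and 11 changed sign, all close to 0: with 1 array left out Scgb1a1 ranged from -0.039 to 0.0674, Bpifb1 from -0.0090 to 0.0641, Sftpa1 from -0.0664 to 0.0967, Sftpb from -0.0601 to 0.0716 and Sftpd from -0.156 to 0.0473, and Sftpb was -0.0047 with quantile normalization, -0.0045 with centred arrays and -0.0013 with the loess trend removed. The cause of these changes was not tested.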

Other observations

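Of the 21 genes highest on WT heart replicate 2 by at least 0.5, 3 more are given here, picked after their values were seen and standing for no gene group. Pdk4, a kinase that limits glucose oxidation, was 10.43 and 11.05 in KD hearts, against 11.08 and 11.87 in WT hearts. Ppargc1a, a coactivator of mitochondrial genes, was 9.90 and 10.04 in KD hearts, against 9.93 and 10.74 in WT hearts. Casq1, a calcium-binding protein of the sarcoplasmic reticulum, was 7.66 and 7.77 in KD hearts, against 7.71 and 8.52 in WT hearts. The 12 cardiac markers had a median deviation of 0.02 on WT heart replicate 2 from the median of the other 3 hearts.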
